A study of Mus musculus with 12 samples.

Results

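Young dystrophin-deficient heart was compared with control heart at 8 weeks. The comparison comprised 6 of the 12 arrays of the series, 3 of mdx hearts and 3 of control hearts, chosen by their sample titles. The remaining 6 arrays held mdx and control hearts at 10.5 months, 3 of each, and were used only for the shared estimate of the spread and for the comparison between ages. Each array measured total RNA of cardiac muscle on the Affymetrix MOE430A design. The controls are wild-type mice per the series title, and the mdx mice differ by the Dmd allele; strain, sex and the number of animals behind an array are not given in the sources used here. Nothing in the labels says whether replicates came from separate animals, so p-values measure only the spread between these samples, which may be technical.

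Dystrophin, the product of Dmd, links the actin cytoskeleton beneath the muscle cell membrane to the extracellular matrix through a complex of membrane proteins. The mdx allele is a point mutation that creates a premature stop codon, and mdx mice are a standard model of Duchenne muscular dystrophy. In the mdx mouse, skeletal muscle degenerates and regenerates early in life, whereas heart disease develops slowly, so hearts at 8 weeks are usually taken to precede overt cardiomyopathy.

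Signals are the deposited intensities rescaled to a trimmed mean of 500 per array. Differences are log2 mdx over control from limma on log2(signal + 32), with the standard error, and they understate changes of dim probe sets. A probe set was called when its Benjamini-Hochberg adjusted p was below 0.05. Several arrays were less alike than others. Correlations of log2 signal were 0.963 to 0.975 among the control arrays, 0.948 to 0.957 among the mdx arrays and 0.937 to 0.958 between the groups. The brightest probe sets reached further on control replicate 2 and mdx replicates 1 and 2 than on the other 3 arrays at 8 weeks. The labels name heart, and the list of ventricular myocyte markers and Y-linked genes gave signal on all arrays.

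limma called 343 of 14932 tested probe sets at 8 weeks (2.30%), 207 higher (1.39%) and 136 lower (0.911%) in mdx hearts, for 309 genes. At an unadjusted p below 0.05 there were 2661. In 341 of the 343 the 3 mdx values did not overlap the 3 control values, but over all tested probe sets 9.51% lay wholly higher and 10.1% wholly lower in mdx hearts. The median difference over all probe sets was -0.01. Single arrays weighed heavily on these calls. The count was 95 without control replicate 1, 42 without control replicate 3, and 212 without mdx replicate 3. It was 232 to 268 without control replicate 2 or mdx replicate 1 or 2. Leaving out an array at 10.5 months, which changes only the shared spread, gave 161 without control replicate 2, 164 without control replicate 1, 167 without mdx replicate 2 and 210 without control replicate 3. Only 23 were called when the 8-week arrays were fitted alone. In all 6 fits that each left out 1 array at 8 weeks, 31 of the 343 were called, 13 higher and 18 lower. In what follows, each call described is given with the 8-week arrays without which it was lost. For a few calls by dimmer probe sets of list genes, it is stated only whether all 6 fits kept them. Gene lists count each gene by its brightest tested probe set, so calls by dimmer probe sets are not in their counts.

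Dmd itself was lower by both of its tested probe sets. The brighter gave signals of 607, 780 and 623 on the control arrays against 264, 279 and 159 on the mdx arrays. The other gave 275, 221 and 305 on the control arrays against 89.6, 73.7 and 135 on the mdx arrays. Each mdx value lay below every control value in both. The falls were 1.42 ± 0.20 (limma adjusted p = 0.00596) and 1.20 ± 0.19 (adjusted p = 0.0103) on the log2 scale. The first was called whichever 8-week array was left out, and the second was lost without control replicate 3 (adjusted p = 0.0557). These probe sets read how much transcript was present and do not read the point mutation. Fewer cells of a type and less RNA per cell cannot be told apart in whole heart, here or in any result that follows.

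The partners of dystrophin did not pass the test. Of 13 tested genes of the dystrophin complex list, 1 was called, Dmd, as a fall, where 2.15% of 8852 genes were called by their brightest probe set and 0.960% were called lower. The list's median was -0.08, against -0.01 over all genes, with 4 of 13 values positive. Utrn, the gene of the dystrophin homologue utrophin, gave 810, 729 and 987 on the control arrays against 795, 787 and 756 on the mdx arrays by its brighter probe set (-0.10 ± 0.16, adjusted p = 0.793). Its second probe set also overlapped between the groups (-0.09 ± 0.20, adjusted p = 0.848). Nearest to the threshold were Sntb1, which encodes a syntrophin, and Sgca, a sarcoglycan gene. Sntb1 gave 149, 50.2 and 134 on the control arrays against 189, 245 and 272 on the mdx arrays (0.97 ± 0.27, adjusted p = 0.0786). Sgca gave 3465, 3143 and 2743 on the control arrays against 1992, 2331 and 2256 on the mdx arrays (-0.50 ± 0.15, adjusted p = 0.100).

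Interferon-inducible GTPases formed the group with the largest median among lists of 8 or more tested genes. These large GTPases are induced by interferon and act on the membranes around intracellular pathogens. All 8 tested members had positive differences, with a median of 0.70, and 3 were called higher (background 1.19% of genes). Iigp1 gave 4149, 4706 and 3068 on the control arrays against 16475, 11684 and 9874 on the mdx arrays by its brighter probe set. The second gave 1300, 1149 and 787 on the control arrays against 3143, 3101 and 3972 on the mdx arrays. Both rose by 1.65 (± 0.24, adjusted p = 0.00596, and ± 0.22, adjusted p = 0.00562), and both were called whichever 8-week array was left out. Iigp1 thus had the same size of rise by 2 separate probe sets, and every mdx value exceeded every control value.

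Igtp and Irgm2, of the same family, each had a single tested probe set. Igtp gave 2234, 2034 and 1947 on the control arrays against 4588, 4270 and 6035 on the mdx arrays, a 2.35-fold rise (1.23 ± 0.24, adjusted p = 0.0263). Irgm2 gave 958, 921 and 595 on the control arrays against 2876, 1379 and 2880 on the mdx arrays, a 2.72-fold rise (1.45 ± 0.29, adjusted p = 0.0292). Neither overlapped between groups, and mdx replicate 2 was the lowest mdx array for both. The call of Igtp was lost without control replicate 1 or 3 or mdx replicate 3 (adjusted p = 0.0602, 0.0924 and 0.0627). That of Irgm2 was lost without control replicate 1 or 3 or mdx replicate 1 or 3 (adjusted p = 0.0579, 0.110, 0.0703 and 0.0644). Igtp and Irgm2 lie near each other on chromosome 11. Their promoters are shown because both genes rose and both hold 2 cores linked to interferon signalling, the ISRE core (GAAA, then NN, then GAAA) and the GAS core (TTC, then NNN, then GAA), within 75 bases of the start. The windows of 300 bases span the annotated start (RefSeq, GRCm38.p6), at chr11:58199306-58199605 for Igtp and chr11:58214727-58215026 for Irgm2, both on the plus strand. Capitals mark the GAS core followed by the ISRE core.
Igtp: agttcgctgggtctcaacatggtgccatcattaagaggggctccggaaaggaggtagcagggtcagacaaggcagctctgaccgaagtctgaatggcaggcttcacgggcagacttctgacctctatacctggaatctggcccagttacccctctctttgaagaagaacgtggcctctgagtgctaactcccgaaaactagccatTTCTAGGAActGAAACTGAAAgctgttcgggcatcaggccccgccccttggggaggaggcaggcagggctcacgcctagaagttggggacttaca
Irgm2: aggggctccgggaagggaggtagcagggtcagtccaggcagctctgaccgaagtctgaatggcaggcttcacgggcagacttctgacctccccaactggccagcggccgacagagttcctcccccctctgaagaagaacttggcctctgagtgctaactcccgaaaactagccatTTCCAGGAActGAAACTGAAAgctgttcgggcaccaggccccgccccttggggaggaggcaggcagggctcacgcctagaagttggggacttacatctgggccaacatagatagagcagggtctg
The ISRE core starts 34 bases before the start in Igtp and 64 before in Irgm2, and the GAS core 45 and 75 before. Searched on both strands, the ISRE core was in 3.44% and the GAS core in 8.30% of 32851 promoters of this length, and both together were in 0.454%. Of 95 promoters of genes called higher 7 held the ISRE core (7.37%), and of 92 of genes called lower 3 did (3.26%), beside 3.16% of 9274 promoters of tested genes. The GAS core was in 11.58%, 3.26% and 6.65% of these promoters. The promoters of Igtp and Irgm2 are among those counted as called higher. Among genes that did not pass, Irgm1 held an ISRE core 30 bases before the start and Gbp3 1 at 45 in its first window, both without a GAS core. A further Gbp3 window held neither core. The 2 printed windows share long runs of the same letters, so they are not independent examples. A match describes these letters and shows no binding.

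The guanylate-binding proteins and Irgm1 did not pass the test, and their mdx arrays differed from each other. Gbp2 gave 680, 898 and 637 on the control arrays against 2076, 435 and 1860 on the mdx arrays by its brighter probe set (0.69 ± 0.44, adjusted p = 0.439), and its second differed by 1.15 ± 0.44 (adjusted p = 0.191). Gbp6 gave 990, 995 and 611 on the control arrays against 1280, 1127 and 1859 on the mdx arrays (0.70 ± 0.26, adjusted p = 0.188). Thus mdx replicate 2 lay below every control for the brighter Gbp2 probe set, whereas the groups did not overlap for Gbp6. By the second Gbp2 probe set mdx replicate 2 gave 340, against 410, 258 and 516 on the control arrays. Gbp3 gave 324, 187 and 195 on the control arrays against 345, 173 and 953 on the mdx arrays (0.70 ± 0.42, adjusted p = 0.407). Irgm1 gave 688, 562 and 581 on the control arrays against 816, 573 and 1390 on the mdx arrays (0.49 ± 0.25, adjusted p = 0.336). The groups overlapped for Gbp3 and Irgm1, and mdx replicate 3 held the highest value of both. On the scale of each probe set's mean over 12 arrays, the median of the GTPase list was 0.25, 0.32 and -0.17 on the control arrays and 1.12, 0.35 and 1.40 on the mdx arrays. The separate interferon response list of 37 tested genes had 30 positive values and a median of 0.22, with 1 gene called. Its median per array was 0.09, -0.24 and -0.04 on the control arrays and 0.23, -0.05 and 0.69 on the mdx arrays, so mdx replicate 2 lay among the controls. Without mdx replicate 3 the medians at 8 weeks were 0.44 for the GTPases and 0.12 for the interferon response.

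Ifi27l2b, of the interferon-induced ISG12 family, was the called member. Its only tested probe set has a name ending in _x_at, the class whose probes may also match other transcripts. That probe set gave 73.4, 79.0 and 84.6 on the control arrays against 256, 283 and 440 on the mdx arrays, a rise of 1.66 ± 0.26 on the log2(signal + 32) scale (adjusted p = 0.00979) that was called whichever 8-week array was left out. The membrane protein gene Ifitm3 gave 3669, 3489 and 3519 on the control arrays against 6454, 5012 and 5014 on the mdx arrays, without overlap, but did not pass (0.61 ± 0.17, adjusted p = 0.0876). Oasl2 gave 303, 259 and 286 on the control arrays against 560, 311 and 659 on the mdx arrays (0.73 ± 0.25, adjusted p = 0.158).

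Irf3, a transcription factor that induces type I interferon genes, was called lower by 1 of 3 probe sets. That probe set gave 261, 302 and 300 on the control arrays against 88.2, 56.0 and 70.2 on the mdx arrays, a fall of 1.64 ± 0.16 (adjusted p = 0.001) that was called whichever 8-week array was left out. The brightest probe set of Irf3 gave 710, 751 and 579 on the control arrays against 586, 623 and 552 on the mdx arrays (-0.20 ± 0.14, adjusted p = 0.498). The third probe set differed by -0.13 ± 0.21 (adjusted p = 0.792). The 2 probe sets without a call overlapped between the groups. Markers of immune cells gave these values: 7 of 13 macrophage and monocyte markers were positive (median 0.10) and 3 of 4 tested lymphocyte markers (median 0.14). By these brightest probe sets limma called 0 of these genes, with 1 of each list at an unadjusted p below 0.05. The macrophage one, Cd163, was lower (-0.99 ± 0.27, adjusted p = 0.0789), and the lymphocyte one was higher. A dimmer probe set of the macrophage marker Csf1r was called higher (0.76 ± 0.18, adjusted p = 0.0498), while its brightest was at 0.10 ± 0.15. The Csf1r call did not stand in every fit that left out 1 8-week array.

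**Figure D1:**
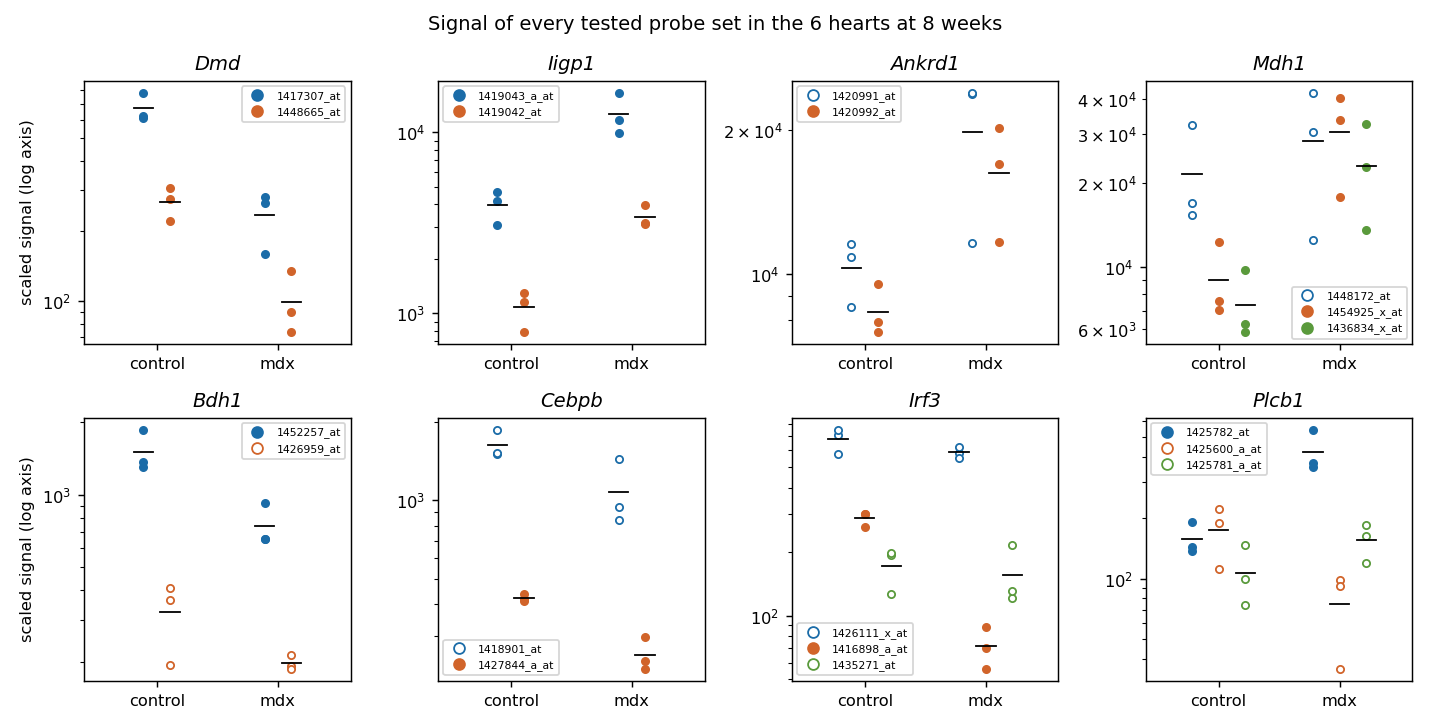
Scaled signal (log axis) of every tested probe set of 8 genes on the 3 control and 3 mdx arrays at 8 weeks. Points are arrays, bars are means, filled points belong to probe sets called by limma, and colours separate probe sets. Dmd and Iigp1 moved alike by both probe sets, while Irf3 and Plcb1 were called by 1 probe set and not by the others.

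Of 17 tested genes of the hypertrophy and fetal list 1 was called higher, Ccn2, and 1 lower, Acta1, beside 1.19% and 0.960% of all genes. The list had 10 positive and 7 negative values and a median of 0.16. Ankrd1, a stress-responsive gene of the myocyte nucleus and sarcomere, had 2 probe sets. The called one gave 7551, 7919 and 9525 on the control arrays against 16973, 20211 and 11632 on the mdx arrays, a 1.91-fold rise (0.93 ± 0.20, adjusted p = 0.0383). The brighter one gave 8520, 10835 and 11547 on the control arrays against 23810, 23889 and 11629 on the mdx arrays (0.88 ± 0.25, adjusted p = 0.0848). Neither overlapped, and mdx replicate 3 was the lowest mdx array in both. Ccn2, which encodes a matricellular growth factor linked to fibrosis, gave 1003, 668 and 1024 on the control arrays against 1363, 1931 and 1541 on the mdx arrays, a 1.78-fold rise (0.83 ± 0.18, adjusted p = 0.0392). Both calls were lost without each control in turn and without mdx replicate 2, where the adjusted p was 0.0773 to 0.118 for Ankrd1 and 0.0695 to 0.0856 for Ccn2. They were also lost without mdx replicate 1 for Ankrd1 (adjusted p = 0.0815) and without mdx replicate 3 for Ccn2 (adjusted p = 0.0627).

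The natriuretic peptide genes Nppa and Nppb, which the myocyte secretes under stretch, were separate between groups but missed the threshold. Nppa gave 4635, 3412 and 4983 on the control arrays against 9769, 9902 and 11201 on the mdx arrays (1.25 ± 0.31, adjusted p = 0.0548). Nppb gave 6583, 7447 and 7752 on the control arrays against 13318, 11089 and 9688 on the mdx arrays (0.64 ± 0.18, adjusted p = 0.0900). Corin, the membrane protease that activates the Nppa product, rose, with 2009, 2220 and 1425 on the control arrays against 2772, 3428 and 3630 on the mdx arrays (0.80 ± 0.18, adjusted p = 0.0407). It lost its call without control replicate 1 or 3 or mdx replicate 2 or 3 (adjusted p = 0.0837, 0.136, 0.0784 and 0.0863). Markers of atrial myocytes moved in the same direction as Nppa, which is one of them. All 6 tested atrial markers were positive, with a median of 0.74 and 0 called by limma, 1 at an unadjusted p below 0.05. Their median was -0.40, -0.57 and -0.21 on the control arrays and 0.24, 0.61 and 0.32 on the mdx arrays. At 10.5 months the median difference of the list was -1.27, opposite in sign to that at 8 weeks, while Nppa itself was at 0.76. Among them the atrial light chain gene Myl7 gave 476, 239 and 462 on the control arrays against 805, 895 and 567 on the mdx arrays, and the calcium pump regulator gene Sln gave 134, 125 and 155 on the control arrays against 434, 393 and 281 on the mdx arrays. Neither Myl7 nor Sln was called. The marker Bmp10 overlapped, with 190, 216 and 108 on the control arrays against 118, 342 and 386 on the mdx arrays (0.54 ± 0.58, adjusted p = 0.677). The part of atrial tissue in the Nppa difference was not tested.

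Of 23 tested actin and smooth muscle contractile genes 3 were called lower, Acta1, Acta2 and Smtn, and 0 higher by limma, beside 0.960% and 1.19% of all genes. Values were positive in 10 and negative in 13, with a median of -0.05. Acta1, the skeletal actin gene that is also part of the fetal heart programme, gave 3529, 6774 and 7566 on the control arrays against 2537, 2418 and 2388 on the mdx arrays (-1.20 ± 0.23, adjusted p = 0.0251). Acta2, the smooth muscle actin gene, gave 6631, 7550 and 6144 on the control arrays against 3580, 4356 and 3693 on the mdx arrays (-0.80 ± 0.14, adjusted p = 0.0184). Both had mdx values within a narrow band below the controls. Smtn, the smooth muscle gene smoothelin, gave 1599, 1511 and 1737 on the control arrays against 955, 1202 and 844 on the mdx arrays (-0.69 ± 0.16, adjusted p = 0.0467). The list of smooth muscle and pericyte markers as a whole had 4 positive and 4 negative values among 8 tested genes (median -0.05), with Acta2 and Smtn its called members. Without control replicate 3 all 3 calls were lost (adjusted p = 0.0924 for Acta1, 0.0527 for Acta2 and 0.146 for Smtn). Acta1 was also lost without control replicate 2 (adjusted p = 0.0533) and Acta2 without control replicate 1 (adjusted p = 0.0523). Smtn was lost without control replicates 1 and 2 and mdx replicates 1 and 3 as well (adjusted p = 0.117, 0.0627, 0.0903 and 0.0954).

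Other cytoskeletal genes depended on which probe set was read. Gsn, gelsolin, which severs actin filaments, had 5 tested probe sets with differences of 0.39, 0.52, 0.30, 0.62 and 2.08. The dimmest gave at most 91.5 on the control arrays and 258, 566 and 489 on the mdx arrays (2.08 ± 0.40, adjusted p = 0.0251), whereas the brightest gave 8610, 14813 and 11213 on the control arrays against 17798, 17768 and 10120 on the mdx arrays, with overlap (adjusted p = 0.413). Des, the muscle intermediate filament gene desmin, was called by its dim probe set (166, 161 and 117 on the control arrays, 294, 306 and 326 on the mdx arrays; 0.93 ± 0.19, adjusted p = 0.0292) and not by its bright one (7639, 11425 and 7400 on the control arrays, 14969, 11884 and 7454 on the mdx arrays; adjusted p = 0.482). Pdlim4, a PDZ and LIM domain protein of actin fibres, had 1 tested probe set with 206, 306 and 175 on the control arrays against 62.8, 67.4 and 28.2 on the mdx arrays. It fell by 1.63 ± 0.22 (adjusted p = 0.00596) and was called whichever 8-week array was left out. The dim Gsn and Des probe sets lost their calls without control replicate 1 (adjusted p = 0.0797 and 0.0589), control replicate 3 (0.0718 and 0.113), mdx replicate 2 (0.0586 and 0.0548) and mdx replicate 3 (0.0574 and 0.0627). A further Gsn probe set was called with all arrays (0.62 ± 0.15, adjusted p = 0.0476) and in none of the 6 fits without 1 array (adjusted p = 0.0727 to 0.129). Both called Gsn probe sets have names ending in _x_at.

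Metabolic genes were called one by one rather than as groups. Of 69 oxidative phosphorylation genes limma called 0 by the brightest probe set, with 1 at an unadjusted p below 0.05, and 64 were positive (median 0.24). Their medians per array were -0.27, 0.48 and -0.15 on the control arrays and 0.71, 0.48 and -0.43 on the mdx arrays, so the 3 arrays with the wide signal range were high and the others low in both groups. Sarcomere genes (29 tested, 22 positive, 1 called lower), citrate cycle genes (21 tested, 17 positive, 0 called, 1 at an unadjusted p below 0.05) and fatty acid oxidation genes (31 tested, 25 positive, 1 called higher) showed the same order of arrays. Over all genes 1.19% were called higher and 0.960% lower. When the fit held a term for the signal range, medians became -0.01 for oxidative phosphorylation, 0.04 for the sarcomere, 0.06 for the citrate cycle and 0.08 for fatty acid oxidation. Dimmer probe sets of Hadh (1.67 ± 0.25, adjusted p = 0.00706) and Hadhb (1.02 ± 0.18, adjusted p = 0.0166), of fatty acid oxidation, were called higher. Both have names ending in _x_at. A dimmer probe set of Ndufs4, of oxidative phosphorylation, was called lower (-0.80 ± 0.19, adjusted p = 0.0474). Their brightest probe sets were at 0.44, 0.40 and -0.08. The Hadh call stood whichever 8-week array was left out, and the Hadhb and Ndufs4 calls did not.

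Bdh1, the mitochondrial enzyme that interconverts the 2 main ketone bodies, was lower by both of its probe sets, of which 1 was called. The called one gave 1300, 1369 and 1862 on the control arrays against 651, 654 and 923 on the mdx arrays (-0.99 ± 0.19, adjusted p = 0.0251). The dimmer one gave 196, 365 and 410 on the control arrays against 215, 194 and 188 on the mdx arrays and overlapped (-0.57 ± 0.22, adjusted p = 0.205). The call was lost without control replicate 3 or mdx replicate 1 or 2 (adjusted p = 0.0973, 0.0579 and 0.0571). Gaa, the lysosomal glucosidase that degrades glycogen, rose by 1 of 2 probe sets. It gave 681, 1018 and 595 on the control arrays against 1283, 1606 and 1749 on the mdx arrays (1.01 ± 0.20, adjusted p = 0.0263), and the second gave 624, 604 and 713 on the control arrays against 738, 1058 and 1177 on the mdx arrays (0.57 ± 0.21, adjusted p = 0.172). Neither overlapped. The Gaa call was lost without control replicate 1 or 3 or mdx replicate 2 or 3 (adjusted p = 0.0817, 0.100, 0.0546 and 0.0619).

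Mdh1, the cytosolic malate dehydrogenase of the malate-aspartate shuttle, had 3 tested probe sets that differed from each other. The 2 called ones have names ending in _x_at, the class whose probes may also match other transcripts. They gave 7584, 12274 and 7029 and 6281, 9774 and 5856 in controls. In mdx hearts they gave 40232, 33440 and 17766 and 32389, 22796 and 13603, rises of 1.73 ± 0.27 (adjusted p = 0.0118) and 1.6 ± 0.27 (adjusted p = 0.0138). The third gave 15334, 32178 and 16921 on the control arrays against 41877, 30316 and 12493 on the mdx arrays, with overlap (0.31 ± 0.37, adjusted p = 0.711). The Mdh1 calls were lost without control replicate 3 (adjusted p = 0.0584 and 0.0692), the second also without control replicate 1 (adjusted p = 0.0516). Acaa1a, a peroxisomal thiolase, was called by 2 probe sets, both again of the _x_at class. The brighter gave 559, 476 and 385 on the control arrays against 1277, 972 and 887 on the mdx arrays (1.09 ± 0.21, adjusted p = 0.0251), and it lost its call without control replicate 3 or mdx replicate 1 (adjusted p = 0.0967 and 0.0579). The dimmer gave 95.7, 114 and 106 on the control arrays against 153, 224 and 246 on the mdx arrays (0.78 ± 0.18, adjusted p = 0.0446). It was lost without each control in turn (adjusted p = 0.0627 to 0.130) and without mdx replicate 2 or 3 (adjusted p = 0.0881 and 0.0933).

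Probe sets of the _x_at class were called more often and almost always upward. Of 1091 tested, 51 were called (4.67%), 47 higher and 4 lower, against 292 of 13841 others (2.11%), 160 higher and 132 lower. The class as a whole was shifted, with 63.1% positive and a median difference of 0.11, against 47.1% and -0.02 for the others. In 591 genes with a tested probe set of each kind, the median was 0.08 for the _x_at and -0.06 for the other, and the _x_at value was the higher one in 375 (63.5%). The median deviation of the class on each array was -0.04, -0.05 and -0.07 on the control arrays and 0.07, 0.01 and 0.09 on the mdx arrays, so all 3 mdx arrays lay above all 3 controls. At 10.5 months the class had a median difference of 0.07. Its part in single rises such as those of Mdh1 and Acaa1a was not tested. Dim probe sets were also called more often, with 3.82%, 2.81%, 2.28%, 1.21% and 1.37% of probe sets called in 5 classes of equal number from the lowest to the highest mean signal.

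**Figure D2:**
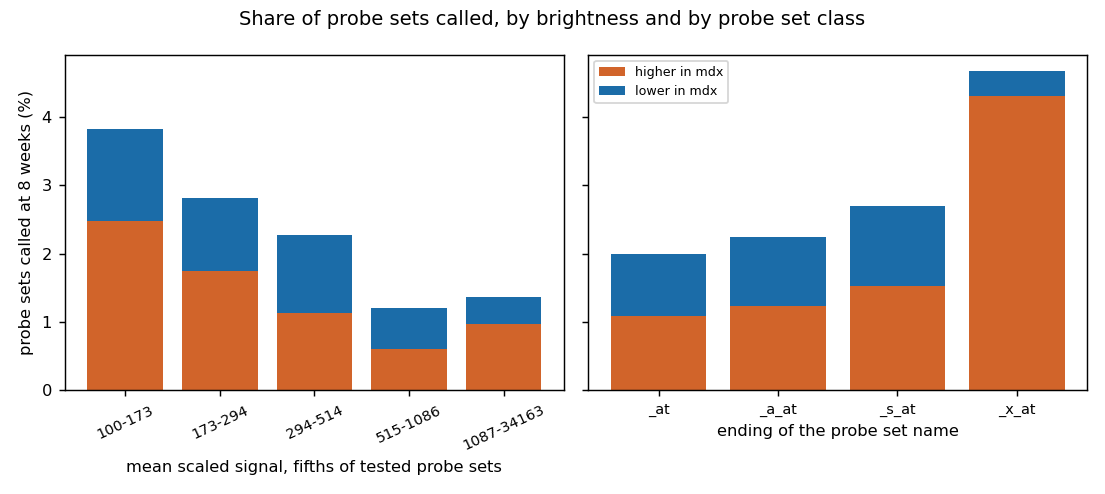
Percent of tested probe sets called at 8 weeks, split into higher (orange) and lower (blue) in mdx hearts, by 5 equal classes of mean scaled signal (left) and by the ending of the probe set name (right). The share falls from 3.82% to 1.37% from the lowest to the highest class, and 47 of the 51 called _x_at probe sets are higher.

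The second probe set of a gene served as a check within the same RNA. In 171 called genes a further probe set was tested, and the brightest of these had the same sign in 111 (64.9%, exact 95% interval 57.3 to 72.0%), whereas the sign was shared in 55.9% of all 3206 genes with at least 2. This interval treats genes as independent, which they are not on shared arrays, so it does not measure the spread between hearts. The median difference in the called direction was 0.91 for the called probe sets, which were picked by their p, and 0.11 for the further ones. In 28 genes the other had the same sign with an unadjusted p below 0.05, in 10 it had the opposite sign with such a p, and in 6 it was called too. Where both probe sets were above the median signal of all tested probe sets the share was 40 of 52 (76.9%), and where the called one was not it was 59 of 104 (56.7%). Over all genes with 2 probe sets, the changes of the 2 brightest correlated across genes with r = 0.17 at 8 weeks and 0.47 at 10.5 months, genes not being independent replicates.

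**Figure D3:**
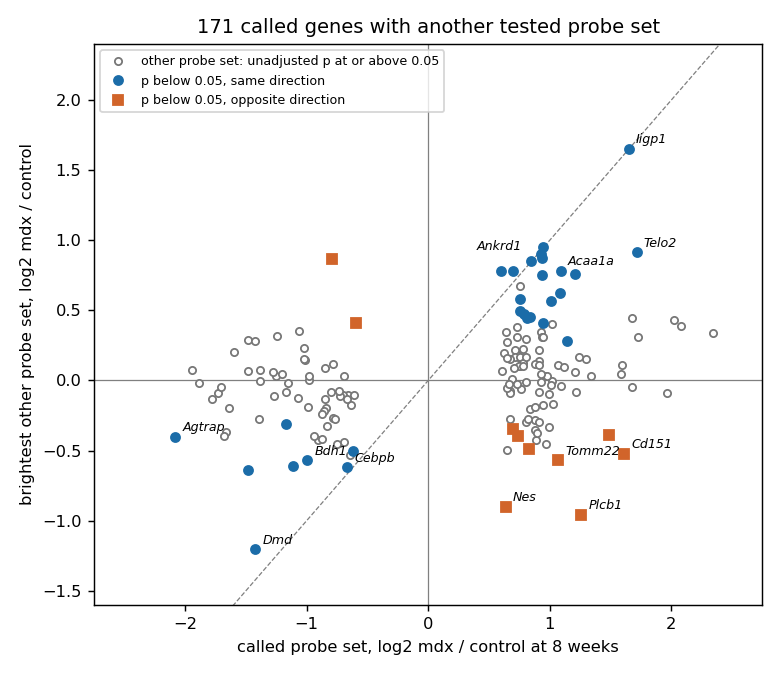
Difference (log2 mdx over control at 8 weeks) of the brightest other probe set against that of the called probe set, for 171 called genes. Filled circles mark others with an unadjusted p below 0.05 and the same sign, squares those with the opposite sign, open circles the rest, and the dashed line marks equal differences. The median of the vertical axis, signed by the call, is 0.11, and Dmd and Iigp1 lie near the line.

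Besides Dmd and Iigp1, a small set of genes moved alike by both. Grhl2, an epithelial transcription factor gene, was called by both, with 121, 143 and 101 on the control arrays against 239, 286 and 256 on the mdx arrays in the dimmer (0.93 ± 0.16, adjusted p = 0.0138) and 220, 272 and 196 against 438, 426 and 355 in the brighter (0.75 ± 0.17, adjusted p = 0.0409). Syp, which encodes a protein of synaptic vesicles, and Telo2, a stabiliser of large DNA damage kinases, were called by 2 probe sets each as well, with 0.90 and 0.93 for Syp and 1.71 and 0.92 for Telo2. No group overlapped in these 3 genes. For Syp the brighter and for Telo2 the dimmer probe set has a name ending in _x_at. Without control replicate 3 the calls were lost in all 6 probe sets (adjusted p = 0.0692 and 0.142 for Grhl2, 0.0988 and 0.0721 for Syp, 0.119 and 0.110 for Telo2). The brighter Grhl2 probe set was also lost without control replicate 1 or mdx replicate 1 or 2 (adjusted p = 0.116, 0.0879 and 0.0783). Both Syp probe sets were also lost without control replicate 2 (adjusted p = 0.0730 and 0.0519) and mdx replicate 1 (0.0722 and 0.0672), the brighter without mdx replicate 2 or 3 (0.0586 and 0.0701) and the dimmer without control replicate 1 (0.111). Telo2 was also lost without control replicate 1 (adjusted p = 0.0739 and 0.104) and mdx replicate 3 (0.0627 and 0.0640), and its dimmer probe set without mdx replicate 1 (0.0696). Cebpb, a transcription factor gene of the acute phase, gave 410, 417 and 435 on the control arrays against 298, 225 and 242 on the mdx arrays (-0.66 ± 0.14, adjusted p = 0.0373), and its brighter probe set differed by -0.62 ± 0.20 (adjusted p = 0.125). The Cebpb call was lost without each control in turn (adjusted p = 0.0617 to 0.119) and without mdx replicate 2 or 3 (adjusted p = 0.0781 and 0.0703). Ivns1abp, a kelch protein of actin filaments, gave 4017, 3614 and 3631 on the control arrays against 6494, 7911 and 6058 on the mdx arrays (0.85 ± 0.16, adjusted p = 0.0209), and its brightest probe set differed by the same 0.85 ± 0.21 (adjusted p = 0.0550), while its dimmest was at -0.01 ± 0.19. The call of Ivns1abp was lost without control replicate 3 (adjusted p = 0.0804).

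In other genes the probe sets went opposite ways. Plcb1, a phospholipase downstream of Gq-coupled receptors, was called higher by a probe set with 144, 137 and 191 on the control arrays against 546, 356 and 374 on the mdx arrays (1.26 ± 0.19, adjusted p = 0.00729). A second gave 220, 112 and 188 on the control arrays against 35.7, 98.4 and 91.5 on the mdx arrays (-0.96 ± 0.29, adjusted p = 0.109), wholly lower, and the remaining one overlapped (0.45 ± 0.26). Cd151, a tetraspanin that binds laminin receptors, rose by its dimmest probe set (182, 128 and 105 on the control arrays, 370, 500 and 591 on the mdx arrays; 1.61 ± 0.21, adjusted p = 0.00562) while its 4 others lay between -0.52 and 0.22. Both calls stood whichever 8-week array was left out. Nes, the intermediate filament gene nestin, gave 236, 304 and 288 on the control arrays against 479, 423 and 434 on the mdx arrays by 1 probe set (0.64 ± 0.15, adjusted p = 0.0446). The brighter probe set of Nes gave 661, 604 and 586 on the control arrays against 312, 532 and 184 on the mdx arrays (-0.90 ± 0.25, adjusted p = 0.0835). The Nes call was lost in each of the 6 fits that left out 1 array (adjusted p up to 0.145). Tomm22, a receptor of mitochondrial protein import, rose by an _x_at probe set (1.07 ± 0.23, adjusted p = 0.0365) and was at -0.57 ± 0.14 by its brighter one (adjusted p = 0.0505). It was lost without control replicate 1 or 3 or mdx replicate 2 or 3 (adjusted p = 0.111, 0.127, 0.0794 and 0.0710).

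Receptors and signalling genes included several large single changes. P2ry1, a receptor for ADP, gave 174, 124 and 250 on the control arrays against 23.2, 13.4 and 25.2 on the mdx arrays (-1.99 ± 0.21, adjusted p = 0.001). Agtrap, which encodes a protein that binds the type 1 angiotensin receptor, gave 325, 249 and 412 on the control arrays against 67.1, 76.2 and 22.7 on the mdx arrays (-2.08 ± 0.30, adjusted p = 0.00596). Its brighter probe set also lay wholly lower, at -0.40 ± 0.16 (adjusted p = 0.220). P2ry1 and Agtrap were called whichever 8-week array was left out. Hrh2, the histamine receptor coupled to contractility, gave 103, 134 and 74.9 on the control arrays against 216, 440 and 416 on the mdx arrays (1.49 ± 0.31, adjusted p = 0.0331). Jag1, a Notch ligand, gave 109, 190 and 132 on the control arrays against 281, 371 and 404 on the mdx arrays (1.14 ± 0.25, adjusted p = 0.0405). Hrh2 and Jag1 were lost without control replicate 1 (adjusted p = 0.0872 and 0.129), control replicate 3 (0.119 and 0.125), mdx replicate 2 (0.0749 and 0.0782) and mdx replicate 3 (0.0724 and 0.0863). Of 33 tested G protein-coupled receptors and their regulators 1 was called higher, Hrh2, and 1 lower, P2ry1, beside 1.19% and 0.960% of all genes, with 18 positive values and a median of 0.04.

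Of 20 tested ion channel and conduction genes 1 was called lower, Kcna5, beside 0.960% of all genes. Among 25 tested calcium handling genes 1 was called higher, Itpr2, beside 1.19% of all genes. A dimmer probe set of the calcium handling gene Trdn was also called higher (0.81 ± 0.16, adjusted p = 0.0282), while its brightest was at 0.30 ± 0.17. The Trdn call did not stand in every fit that left out 1 8-week array. Kcna5, a voltage-gated potassium channel, gave 682, 797 and 1073 on the control arrays against 377, 337 and 406 on the mdx arrays (-1.10 ± 0.19, adjusted p = 0.0173), and the call was lost without control replicate 3 (adjusted p = 0.0727). Itpr2, the calcium release channel opened by inositol trisphosphate, was called by 1 of 4 probe sets, with 92.6, 101 and 122 on the control arrays against 260, 260 and 455 on the mdx arrays (1.34 ± 0.24, adjusted p = 0.0169). Its 3 others lay between 0.03 and 0.24, all with overlap. The Itpr2 call was lost without control replicate 1 or 3 (adjusted p = 0.0579 and 0.0557). Klf15, a transcription factor of cardiac metabolism that restrains hypertrophic genes, gave 885, 666 and 642 on the control arrays against 369, 309 and 445 on the mdx arrays (-0.91 ± 0.20, adjusted p = 0.0383). It was lost without each control in turn (adjusted p = 0.0529 to 0.127) and without mdx replicate 1 or 2 (adjusted p = 0.0720 and 0.0845).

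Several of the firmest calls were dim, and some of these were of genes best known from other organs. Slc5a2, the sodium-glucose cotransporter of the kidney tubule, gave 50.2, 41.5 and 45.9 on the control arrays against 326, 317 and 463 on the mdx arrays, a rise of 2.35 ± 0.26 on the log2(signal + 32) scale (adjusted p = 0.00177). Its brighter probe set gave 158, 125 and 134 on the control arrays against 136, 186 and 240 on the mdx arrays, with overlap (0.34 ± 0.23, adjusted p = 0.486). Fam151a gave 81.9, 90.1 and 94.3 on the control arrays against 208, 223 and 311 on the mdx arrays (1.19 ± 0.15, adjusted p = 0.00462). Among the falls, Mpg, a DNA glycosylase of base excision repair, gave 122, 106 and 131 on the control arrays against 23.4, 25.1 and 29.3 on the mdx arrays (-1.39 ± 0.14, adjusted p = 0.001). Nbeal2, needed for platelet granules, gave 169, 153 and 160 on the control arrays against 34.6, 30.9 and 36.9 on the mdx arrays (-1.54 ± 0.16, adjusted p = 0.001). Washc2, a subunit of the endosomal WASH complex, was called by 1 of 3 probe sets, with 194, 142 and 240 on the control arrays against 20.1, 26.5 and 37.4 on the mdx arrays (-1.89 ± 0.24, adjusted p = 0.00462), and its brighter ones were at -0.02 ± 0.15 and 0.19 ± 0.18. These 5 genes were called whichever 8-week array was left out, and for the called probe set their mdx and control values did not overlap.

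Cell type lists gave few calls. All 8 fibroblast markers were positive (median 0.33, limma calling 0, with 1 at an unadjusted p below 0.05), with per-array medians of -0.29, -0.49 and -0.09 on the control arrays and -0.14, -0.05 and 0.06 on the mdx arrays, which overlapped. Extracellular matrix genes had a median of 0.14 with 25 of 43 positive and 2 called higher by the brightest probe set (Ccn2 and Col16a1), beside 1.19% of all genes. Dimmer probe sets of the matrix genes Col5a2 (0.78 ± 0.18, adjusted p = 0.0474) and Fmod (0.67 ± 0.14, adjusted p = 0.0292) were also called higher. Their brightest probe sets were at 0.15 and 0.16, and neither call stood in every fit that left out 1 8-week array. Col16a1, a collagen gene, gave 150, 33.2 and 62.9 on the control arrays against 225, 165 and 250 on the mdx arrays (1.22 ± 0.29, adjusted p = 0.049), and its call was kept only without control replicate 1 among the 6 fits that left out 1 array at 8 weeks (adjusted p = 0.0579 to 0.149 in the others). Of 8 endothelial markers 7 were negative (median -0.12, limma calling 0, with 1 at an unadjusted p below 0.05). Proteasome genes, which encode the subunits of the main protein-degrading complex, had 27 of 32 negative values and a median of -0.18. By the brightest probe sets limma called 0 of them, with 6 at an unadjusted p below 0.05, all lower. Their per-array medians were 0.01, 0.12 and 0.03 on the control arrays and -0.11, -0.19 and -0.17 on the mdx arrays and did not overlap, and the median at 10.5 months was 0.16. Dimmer probe sets of the proteasome genes Psmd4 (1.96 ± 0.33, adjusted p = 0.0138) and Psmd11 (1.00 ± 0.20, adjusted p = 0.0292) were called higher. Their brightest probe sets were at -0.09 and -0.10. The Psmd4 call stood whichever 8-week array was left out, and that of Psmd11 did not.

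**Figure D4:**
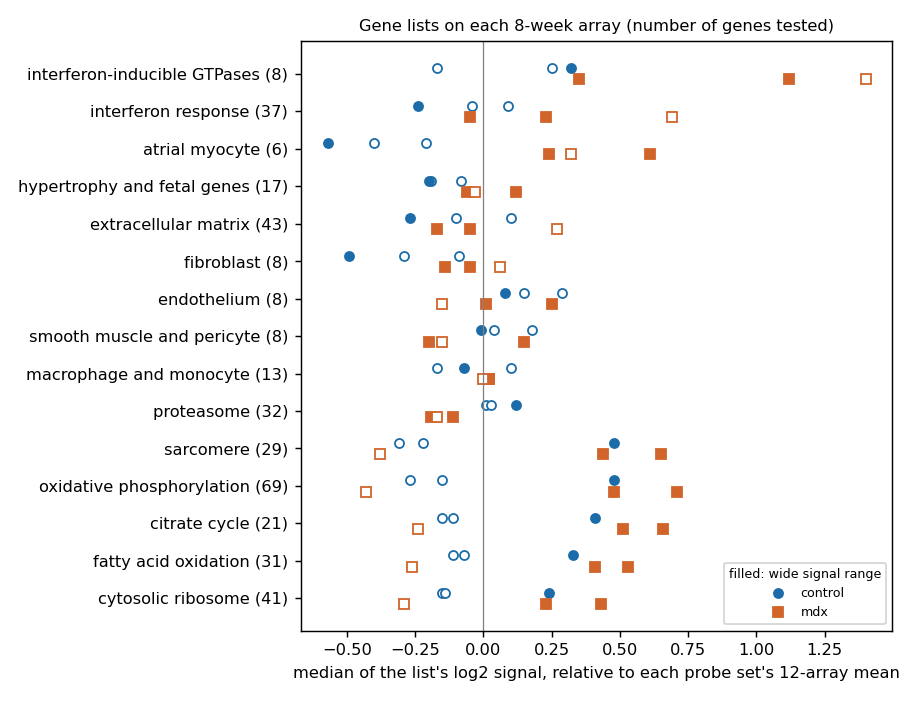
Median log2 signal of each gene list on each 8-week array, relative to each probe set's mean over 12 arrays, with the number of genes tested in brackets. Circles are control and squares mdx arrays, and filled symbols are the 3 arrays with a wide signal range. Atrial markers separate the groups, and the oxidative phosphorylation and sarcomere lists separate filled from open symbols.

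The differences at 8 weeks were then set against those at 10.5 months, where other arrays were used. Of the 343 calls, 171 had the same sign at 10.5 months (49.9%, exact 95% interval 44.4 to 55.3%), against 53.2% of all tested probe sets. Here too the interval treats probe sets as independent, which on shared arrays they are not. At 10.5 months limma called 7 probe sets in all (0.0469%), and 3 of them were also called at 8 weeks, namely both probe sets of Dmd and that of Ccn2. With an unadjusted p below 0.05 at 10.5 months, 18 had the same and 27 the opposite sign. The interaction of genotype and age was called in 23 probe sets (0.154%), of which 21 were called at 8 weeks, and 1813 had an unadjusted p below 0.05. The difference had opposite signs at the 2 ages in 20 of the 23. The interaction test picks probe sets whose differences diverge most between the ages, which favours opposite signs, so this count is no separate result. Without control replicate 3 at 8 weeks limma called 0 interactions, with 1535 at an unadjusted p below 0.05.

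Among the 23 were both probe sets of Iigp1, and those of Igtp and Acta2. Iigp1 gave 2004, 3489 and 2738 on the control arrays against 1654, 1459 and 1768 on the mdx arrays at 10.5 months by its brighter probe set, lower in mdx, and the effects differed by 2.37 ± 0.34 (interaction adjusted p = 0.0196). Igtp gave 840, 1546 and 1799 on the control arrays against 704, 721 and 906 on the mdx arrays, with an interaction of 1.99 ± 0.34 (adjusted p = 0.0427). Irgm2 missed the threshold (2.18 ± 0.41, interaction adjusted p = 0.0662), as did Gbp2, Gbp3, Gbp6 and Irgm1 (interaction adjusted p = 0.258 to 0.468). Acta2 gave 3044, 2804 and 3173 on the control arrays against 5026, 4661 and 4430 on the mdx arrays, the reverse order of that at 8 weeks (interaction -1.44 ± 0.20, adjusted p = 0.0196). For Irf3 and P2ry1 the mdx and control values at 10.5 months overlapped, at 154 to 210 against 184 to 206 and at 170 to 237 against 211 to 275. Those of Irf3 lay below every 8-week control, while the older P2ry1 controls reached above the highest 8-week control. The interaction of Dmd was 0.20 ± 0.28 by its brighter probe set (adjusted p = 0.824) and 0.68 ± 0.26 by the other (adjusted p = 0.332), where the fall was 1.20 at 8 weeks and 1.88 at 10.5 months, and neither was called.

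**Figure D5:**
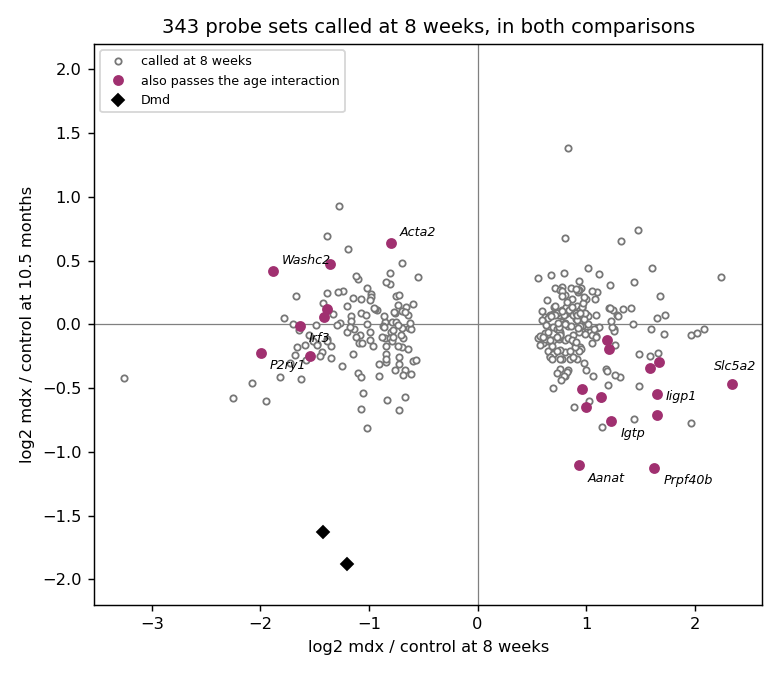
Difference (log2 mdx over control) at 10.5 months against that at 8 weeks for the 343 probe sets called at 8 weeks. Filled circles also passed the test of the interaction with age, and diamonds are the 2 probe sets of Dmd, which fell at both ages. The share with the same sign at both ages was 49.9%.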

How the data were processed

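Affymetrix MOE430A arrays measured total RNA of cardiac muscle. The deposited values are linear intensities for 22690 probe sets. The authors scaled the arrays to a common trimmed mean (1500.6 to 1500.9 from the values), and a standard Affymetrix protocol was used per the labels. The probe-summary software was not given in the sources used here, and the labels also carry a keyword naming extraocular muscle. Arrays were brought to a 2% trimmed mean of 500 each, and log2(signal + 32) was tested for probe sets with a mean of at least 100 over 12 arrays, without the 64 control probe sets. Platform annotation gave 1 gene for 20393 probe sets, several for 691 and none for 1606, and no gene was named from several. limma 3.58.1 in R 4.3.3 fitted group means to all 12 arrays (8 residual and 5.2 prior degrees of freedom), checked on simulated data. Median within-group SDs of log2 signal were 0.202 and 0.250 in control and mdx hearts at 8 weeks and 0.147 and 0.193 at 10.5 months. Genes stand in lists by their brightest probe set. The number of arrays limits the precision.

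Members and the 56 gene lists were chosen with earlier results of these data known. Named are genes called by 2 probe sets, called genes whose other probe set moved alike or oppositely with an unadjusted p below 0.05, the largest changes of genes with 1 probe set, called and nearest members of lists, the smallest interaction p-values, and Dmd and Utrn. Alternatives left out each array in turn and changed the normalization, offset, filter, block and probe set class.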

Additional observations from a re-analysis of the deposited data

Results flagged for a closer look

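Effects of mdx differed between 8 weeks and 10.5 months, by the limma interaction over all tested probe sets (adjusted p = 0.0196 to 0.0479), for 15 named probe sets. The value given is the log2 difference at 8 weeks minus that at 10.5 months. It was positive for the glucose cotransporter gene Slc5a2 (2.81), the splicing gene Prpf40b (2.76), both probe sets of Iigp1 (2.37 and 2.2), Aanat of melatonin synthesis (2.04), Igtp (1.99), the developmental transcription factor gene Six3 (1.64), the G protein chaperone gene Ric8a (1.40) and Fam151a (1.31). It was negative for Washc2 (-2.30), P2ry1 (-1.77), Irf3 (-1.62), Mpg (-1.50), Acta2 (-1.44) and Nbeal2 (-1.29). Aanat gave 96.6, 64.7 and 84.1 on the control arrays against 190, 186 and 177 on the mdx arrays at 8 weeks, and 106, 135 and 127 against 20.1, 68.2 and 38.7 at 10.5 months, so the groups were apart at both ages in opposite order. The 8-week call of Aanat was lost in each of the 6 fits without 1 array at 8 weeks (limma adjusted p = 0.0636 to 0.111), that of Prpf40b without control replicate 2 or 3 or mdx replicate 3 (adjusted p = 0.0619, 0.0896 and 0.0627) and that of Six3 without control replicate 3 or mdx replicate 2 (adjusted p = 0.0904 and 0.053). Without control replicate 3 at 8 weeks limma called 0 interactions, with 1535 at an unadjusted p below 0.05.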

How the results depend on the processing

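The 343 calls at 8 weeks became 23 when only the 8-week arrays were fitted, 191 with array weights and 214 without _x_at probe sets, the last chosen after seeing the data. Leaving out single arrays gave 42 to 308 calls. The replicate numbers were shared by the groups but did not pair the samples (correlations of same-numbered deviations -0.129, 0.135 and 0.115), and with the replicate number as a block there were 101 calls and limma called 0 interactions (1735 at an unadjusted p below 0.05). The 23 interactions became 15 with an offset of 64, 3 with a minimum signal of 200, 141 with array weights, and 0 to 31 without single arrays. Quantile normalization, cyclic loess, an offset of 16 or 64, no filter, a minimum of 200 and the signal range as a block gave 242 to 454 calls. The share of second probe sets of the same sign was 90.9% (10 of 11) with only the 8-week arrays and 61.3 to 70.9% without single arrays. The share of calls with the same sign at 10.5 months was 42.9% with array weights and 42.9 to 60.5% without single arrays. Without single arrays Utrn ran from -0.19 to 0.02 by its brighter probe set (0.02 without control replicate 3) and from -0.19 to 0.01 by the other (0.01 without mdx replicate 1), which was 0.00 with the signal range as a block. Of 83 named called probe sets, 14 were called with only the 8-week arrays, 32 with the replicate block, 46 with array weights, 64 with no filter, 16 (without control replicate 3) to 52 without single 8-week arrays, and 68 to 83 under cyclic loess, quantile normalization, other offsets or the signal range as a block. The cause was not tested.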
